A study of Mus musculus with 16 samples.

Results

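The small leucine-rich proteoglycans (SLRPs) decorin (Dcn), lumican (Lum), biglycan (Bgn), fibromodulin (Fmod), osteoglycin (Ogn), asporin (Aspn) and Prelp, together with the large hyaluronan-binding proteoglycan versican (Vcan), were followed in lung cells sorted by a tdTomato label. The 8 genes are a list of symbols drawn up with earlier results of these data known, and all 8 were found among the 49452 genes of each library. RNA of tdTomato-positive cells from the left lung lobe was sequenced from 16 male mice on a C57BL6 background, 4 in each of 4 groups. The question was how cells labelled from the Acta2 promoter (smooth muscle cells and myofibroblasts) and cells labelled from the Pdgfra promoter (a fibroblast receptor gene) differ in a healthy and a fibrotic lung.

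Acta2-tdT mice carried Acta2-CreERT2 and tdTomatoflox, and Pdgfra-tdT mice carried Pdgfra-CreERT2 and tdTomatoflox. Each line was given saline or bleomycin, a drug that scars the lung, and was studied 14 days later at 11 weeks of age. All mice, saline controls included, received tamoxifen to switch on the label. Acta2-tdT mice received it in food at 400 mg/kg from 5 days after instillation, and Pdgfra-tdT mice received 5 injections of 3 mg at 6 weeks of age. The label is permanent, so it reports past as well as present promoter activity, and line and labelling schedule cannot be told apart. In Acta2-tdT mice labelling began after instillation, so bleomycin and saline may have led to different cells being labelled. A change in level and a change in the cells labelled cannot be told apart there. The same holds for a bleomycin effect that differs between the lines.

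SLRPs are secreted proteins with a core of leucine-rich repeats that bind collagen fibrils and set their spacing and thickness. Most carry chondroitin, dermatan or keratan sulfate chains, and decorin and biglycan also bind transforming growth factor-β (TGF-β). Versican carries many chondroitin sulfate chains, binds hyaluronan and belongs to the provisional matrix of injured tissue. In the lung these proteoglycans are known products of fibroblasts and smooth muscle cells.

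The values are FPKM, the fragments mapped to a gene divided by its transcript length and by the mapped total of the library. Their nuclear protein-coding sum differed between groups: it lay between 35602 and 57788 in Acta2-tdT saline mice, between 231058 and 463127 in Acta2-tdT bleomycin mice, between 29964 and 59840 in Pdgfra-tdT saline mice and between 28512 and 137952 in Pdgfra-tdT bleomycin mice. A scaled FPKM was therefore also used, in which this sum is set to 100000 in each mouse. The median of 1443 olfactory and vomeronasal receptor genes, which lung cells are not known to use, went the other way, from 0.323 to 0.332 FPKM in Acta2-tdT saline mice against 0.0134 to 0.122 FPKM in Acta2-tdT bleomycin mice. Scaling divides by a sum that was smaller in Acta2-tdT saline mice, so it does not remove this difference. The part of such background in the fold changes, in FPKM or scaled, was not tested. Acta2 was between 139 and 3211 FPKM in the Acta2-tdT mice and between 0.830 and 19.4 FPKM in the Pdgfra-tdT mice. Pdgfra did not follow its label under bleomycin: it was 0.977 to 2.45 FPKM in Pdgfra-tdT bleomycin mice and higher, 2.49 to 11.9 FPKM, in Acta2-tdT bleomycin mice, and scaled it overlapped (1.78 to 4.75 against 1.08 to 2.57). With saline it was 2.13 to 3.82 FPKM in Pdgfra-tdT mice and 0.273 to 0.562 FPKM in Acta2-tdT mice. In every Pdgfra-tdT mouse except saline mouse 3, Pdgfra was below the 95th percentile of these receptor genes in that mouse. This percentile was 2.32 to 4.23 FPKM over the line. In the Pdgfra-tdT line the 10 fibroblast markers summed to between 2.17 and 105 FPKM, with Tcf21 listed at 0 in all 4 bleomycin mice. In Pdgfra-tdT bleomycin mouse 8 none of the 10 reached 1 FPKM, and mouse 7 and mouse 8 had fibroblast sums of 3.78 and 2.17 FPKM against macrophage sums of 1511 and 389.8 FPKM. In Acta2-tdT saline mice the neutrophil markers summed to more than the smooth muscle markers in every mouse. The groups are therefore called by their label and not by a cell type. Pdgfra-tdT saline mouse 3 and Pdgfra-tdT bleomycin mouse 5 stood apart from the other 6 mice of that line: 5 of 6 endothelial markers were higher in both than in any of the others, with sums of 333.5 and 875.5 FPKM against 3.79 to 89.8 FPKM. So were 5 of 10 fibroblast markers, with sums of 33.3 and 105 FPKM against 2.17 to 11.9 FPKM.

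All 8 are protein-coding genes, and 6 lie in 3 neighbourhoods of SLRP genes (mm10). Dcn (10:97479500-97518162, plus strand) is followed 47338 bases on by Lum (10:97565501-97572703, plus strand), then by Kera and Epyc. Aspn (13:49544443-49567565, plus strand) and Ogn (13:49608071-49624500, plus strand) are 40505 bases apart with Omd between them and Ecm2 before them. Prelp (1:133910304-133921414, minus strand) lies 115839 bases from Fmod (1:134037254-134048277, plus strand), and beside Optc. Bgn (X:73483602-73495933, plus strand) and Vcan (13:89655312-89742509, minus strand) lie elsewhere.

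The 250 bases before the RefSeq start (GRCm38.p6) are shown for 2 members that rose with bleomycin in Acta2-tdT cells on both scales (Bgn, Fmod) and for the chromosome 13 neighbours that did not (Ogn, Aspn). They read 5′ to 3′ on the strand of the gene, with motif matches in capitals.
Bgn (X:73483351-73483600, plus strand): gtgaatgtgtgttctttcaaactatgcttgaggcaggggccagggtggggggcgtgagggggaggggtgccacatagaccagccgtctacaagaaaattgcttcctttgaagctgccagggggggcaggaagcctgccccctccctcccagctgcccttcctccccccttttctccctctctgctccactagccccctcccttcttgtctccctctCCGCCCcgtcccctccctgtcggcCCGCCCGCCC
Fmod (1:134037004-134037253, plus strand): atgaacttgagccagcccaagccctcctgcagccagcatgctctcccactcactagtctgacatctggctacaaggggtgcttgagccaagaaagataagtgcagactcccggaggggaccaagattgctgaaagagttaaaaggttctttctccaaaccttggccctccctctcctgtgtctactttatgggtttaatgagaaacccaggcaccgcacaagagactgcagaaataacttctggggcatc
Ogn (13:49607765-49608014, plus strand): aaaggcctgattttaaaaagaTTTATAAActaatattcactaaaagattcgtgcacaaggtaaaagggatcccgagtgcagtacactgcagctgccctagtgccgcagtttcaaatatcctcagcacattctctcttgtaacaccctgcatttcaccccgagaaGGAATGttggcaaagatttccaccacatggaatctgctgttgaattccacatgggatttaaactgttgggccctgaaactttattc
Aspn (13:49544193-49544442, plus strand): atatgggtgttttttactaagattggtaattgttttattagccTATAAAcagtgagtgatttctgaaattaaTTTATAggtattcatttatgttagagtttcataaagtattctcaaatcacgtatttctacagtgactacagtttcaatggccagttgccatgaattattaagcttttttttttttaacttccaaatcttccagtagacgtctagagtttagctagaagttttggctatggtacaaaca

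Motifs were searched on both strands in the same window of 32851 mouse promoters. The GC box GGGCGG was present 3 times before Bgn, the last 2 matches overlapping, and in 32.7% of all promoters. It was also present before Vcan, whose promoter is not shown. TATAAA was present before Ogn, as a match on each strand that overlap, and before Aspn, also on each strand, and in 12.4% of all promoters. The TEAD motif GGAATG was present before Ogn and in 12.6% of all promoters. The AP-1 motif TGANTCA and the CArG box were in none of the 6 member promoters held in the table (Bgn, Fmod, Ogn, Aspn, Prelp, Vcan) and in 6.75% and 1.47% of all promoters. These matches are descriptions of letters only.

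In saline-treated lungs, Acta2-tdT cells held 6 SLRPs at 2.36 FPKM or more, and Fmod and Vcan under 1 FPKM. Ogn and Dcn led: 1 or the other was the most abundant of the 8 genes in each of the 4 mice. The members summed to between 35.8 and 77.8 FPKM. As a guide to background, the 95th percentile of the same 1443 receptor genes was taken in each mouse, and 5 or 6 members lay above it in each Acta2-tdT saline mouse.

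Ogn, also called mimecan, was 8.96, 9.96, 19.8 and 16.1 FPKM in Acta2-tdT saline mice 1 to 4, and 0.177, 0.278, 3.88 and 0.264 FPKM in Pdgfra-tdT saline mice 1 to 4. Every Acta2-tdT mouse was above every Pdgfra-tdT mouse, and mouse 3 was the highest of the latter. The log2 fold change of FPKM was 3.01 (SE 0.53, limma adjusted p = 0.0234), and 3.61 scaled.

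Aspn, which binds collagen and TGF-β, was 4.01 to 7.61 FPKM in Acta2-tdT saline mice and 0.191 to 0.569 FPKM in Pdgfra-tdT saline mice. Prelp, a basement membrane anchor without glycosaminoglycan chains, was 3.83 to 10.3 FPKM in the former and 0.129 to 0.315 FPKM in the latter. Both genes were separated without overlap, as in this direction for 6.56% of all genes tested. Both reached the 1 FPKM needed for testing only in the Acta2-tdT mice. In FPKM, Aspn had a log2 fold change of 2.22 (SE 0.25, adjusted p = 0.00387) and Prelp of 2.42 (SE 0.30, adjusted p = 0.0056), against 2.74 and 3.09 scaled.

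Bgn was 6.52, 5.98, 7.70 and 13.7 FPKM in the Acta2-tdT saline mice and 0.256, 0.884, 1.67 and 2.75 FPKM in the Pdgfra-tdT saline mice. Lum was 2.36 to 4.06 FPKM in the former and 0.300 to 1.49 FPKM in the latter. Neither gene overlapped between the lines. Bgn was called on both scales, with log2 fold changes of 2.04 (adjusted p = 0.0438) in FPKM and 2.30 (adjusted p = 0.0454) scaled. Lum was called in FPKM only, with 1.37 (adjusted p = 0.0368) against 1.66 (adjusted p = 0.0586) scaled.

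Dcn did not separate the saline groups. It was 7.46, 12.1, 18.2 and 25.8 FPKM in Acta2-tdT mice 1 to 4, and 2.78, 1.25, 44.1 and 3.99 FPKM in Pdgfra-tdT mice 1 to 4. The value in Pdgfra-tdT mouse 3, the mouse with high endothelial and fibroblast markers, was the highest of the 8 mice compared. The log2 fold change of Dcn was 1.23 (SE 0.92, adjusted p = 0.614), and without that mouse it was 2.15 (adjusted p = 0.0172). With sample quality weights in limma it was 2.05 (adjusted p = 0.0154).

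In all, 5 of the 6 members tested were called higher in Acta2-tdT cells in FPKM, where 2.72% of 8153 genes were called higher, and 4 of 6 scaled, where 3.04% were. The groups did not overlap in FPKM for those 5 members, nor in this direction for 6.56% of all genes tested. All 5 passed the filter of 1 FPKM in 4 mice only through the Acta2-tdT group, where they are high; Bgn reached 1 FPKM in 2 Pdgfra-tdT saline mice, Lum and Ogn in 1, and Aspn and Prelp in none. Fmod and Vcan did not pass it: Fmod was at most 0.336 FPKM and Vcan at most 0.975 FPKM in any saline mouse. An exact two-sided permutation test of each gene gave p = 0.0286 for Lum, Bgn, Ogn, Aspn and Prelp, the smallest that 70 labellings of 4 against 4 allow. The count in FPKM fell to 2 when any one of 5 mice was left out (Acta2-tdT saline mice 1, 3 and 4, Pdgfra-tdT saline mice 1 and 2) and to 3 without Pdgfra-tdT saline mouse 4, with Aspn and Prelp called in every one of the 8 fits that left out a mouse. Marker lists differed between these groups as well. In FPKM, the 8 smooth muscle markers summed to between 180.1 and 414.3 in Acta2-tdT and between 4.93 and 16.2 in Pdgfra-tdT saline mice, the 6 pericyte markers to between 20.9 and 24.97 against 1.19 to 3.01, and the 5 neutrophil markers to between 740.5 and 1472 against 21.1 to 45.6. The part of these cells in the line difference was not tested. In bulk RNA of sorted cells, fewer cells of a type and less RNA per cell cannot be told apart.

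**Figure D1:**
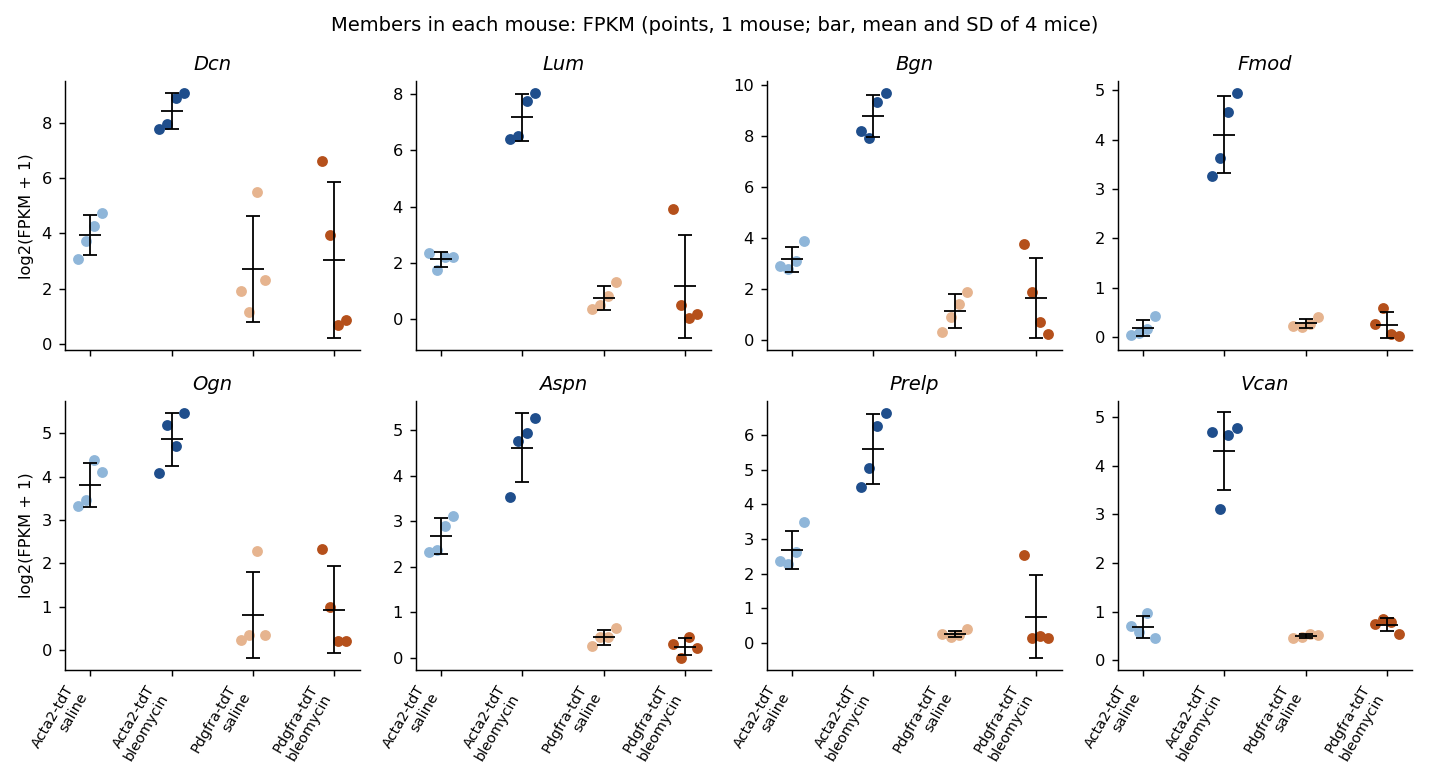
Level of each of the 8 genes in each mouse as log2(FPKM + 1), by group, with points for single mice and bars for the mean and SD of 4 mice. The mean of each of the 8 genes is highest in Acta2-tdT bleomycin mice, where Bgn reaches 823 FPKM, and Pdgfra-tdT saline mouse 3 and bleomycin mouse 5 lie above their groups for Dcn and Ogn.

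With bleomycin, the FPKM of every member rose in Acta2-tdT cells, and the order of the genes changed. Bgn became the most abundant in all 4 mice, followed by Dcn and Lum, and the members summed to between 680 and 1850 FPKM. Most of the transcriptome rose on this scale: 70.4% of 12523 genes were called higher, with a median log2 fold change of 1.76 over all genes, so the 8 of 8 members called higher are read against that background. Fmod and Vcan passed the filter only through the bleomycin mice. After scaling, where 23.8% of genes were called higher and 32.3% lower with a median of -0.03, the members parted: 5 were higher (Bgn, Lum, Fmod, Dcn, Vcan), Ogn was lower, and Prelp and Aspn were not called.

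Bgn was 297, 246, 640 and 823 FPKM in Acta2-tdT bleomycin mice 5 to 8, against 5.98 to 13.7 FPKM with saline. The groups lay far apart on both scales, since scaled Bgn was 93.4 to 178 against 15.9 to 23.7. The log2 fold change was 5.62 (SE 0.49, adjusted p = 1.35e-05) in FPKM and 2.73 (SE 0.30, adjusted p = 4.73e-05) scaled. Lum, which regulates collagen fibril diameter, was 82.9, 90.1, 213 and 258 FPKM with bleomycin against 2.36 to 4.06 with saline. Its log2 fold change was 5.04 (SE 0.45) in FPKM and 2.27 (SE 0.31, adjusted p = 0.000186) scaled.

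Dcn was 219, 245, 469 and 535 FPKM in the 4 bleomycin mice. Its log2 fold change was 4.47 (SE 0.49) in FPKM and 1.54 (SE 0.32, adjusted p = 0.00282) scaled. The scaled call was lost with all 16 mice in 1 fit (adjusted p = 0.221). No bleomycin mouse overlapped a saline mouse for Dcn, Lum or Bgn on either scale, as in this direction for 67.8% of genes in FPKM and 21.5% scaled.

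Fmod, a keratan sulfate SLRP that guides collagen cross-linking, went from background to a level of its own. It was 0.0330 to 0.336 FPKM in saline mice, and 8.60, 11.5, 22.6 and 29.8 FPKM in bleomycin mice 5 to 8. All 4 saline mice were below the 95th percentile of the receptor genes and all 4 bleomycin mice were above it. The rise was 3.93 (SE 0.38, adjusted p = 1.58e-05) in FPKM and 2.17 (SE 0.24, adjusted p = 5.46e-05) scaled, as log2 fold changes.

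Vcan was 0.634, 0.490, 0.975 and 0.379 FPKM with saline, and 24.9, 7.62, 23.6 and 26.5 FPKM with bleomycin. Mouse 6 was lower than the other bleomycin mice and still above every saline mouse. Its log2 fold change was 3.62 (SE 0.39, adjusted p = 2.2e-05) in FPKM and 1.42 (SE 0.28, adjusted p = 0.00198) scaled.

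Ogn, the leading SLRP with saline together with Dcn, rose least in FPKM and fell after scaling. It was 15.9, 35.8, 25.2 and 43.0 FPKM in bleomycin mice 5 to 8, which overlapped the 8.96 to 19.8 FPKM of saline mice. The log2 fold change in FPKM was 1.05 (SE 0.42, adjusted p = 0.0377, exact permutation p = 0.0857), and it was no longer called when Acta2-tdT saline mouse 1 or 2 or bleomycin mouse 6, 7 or 8 was left out, at adjusted p between 0.0632 and 0.103. With quantile normalization of FPKM it turned to -1.32 (adjusted p = 0.00689). Scaled Ogn was 24.3, 28, 40.8 and 27.9 in saline mice 1 to 4 and 5.00, 15.5, 5.78 and 9.28 in bleomycin mice 5 to 8. These groups did not overlap, as in this direction for 29.6% of genes, and scaled Ogn fell by 1.75 on the log2 scale (SE 0.36, adjusted p = 0.00238).

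Aspn and Prelp rose in FPKM and were not called after scaling. Aspn was 10.5, 26.0, 29.4 and 37.4 FPKM with bleomycin, with a log2 fold change of 1.94 (SE 0.43, adjusted p = 0.00152) in FPKM and -0.76 (SE 0.32, adjusted p = 0.069) scaled. Without bleomycin mouse 6, scaled Aspn was called lower, at -0.98 (adjusted p = 0.0262). Prelp was 21.5, 31.8, 74.6 and 97.9 FPKM with bleomycin, with a log2 fold change of 2.91 (SE 0.53, adjusted p = 0.000431) in FPKM and 0.14 (SE 0.36, adjusted p = 0.751) scaled. Scaled Prelp overlapped between the groups, at 10.5 to 17.7 in the saline mice and 6.76 to 21.1 in the bleomycin mice. With quantile normalization the FPKM calls of both genes were lost, at 0.51 for Prelp (adjusted p = 0.234) and -0.43 for Aspn (adjusted p = 0.239).

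**Figure D2:**
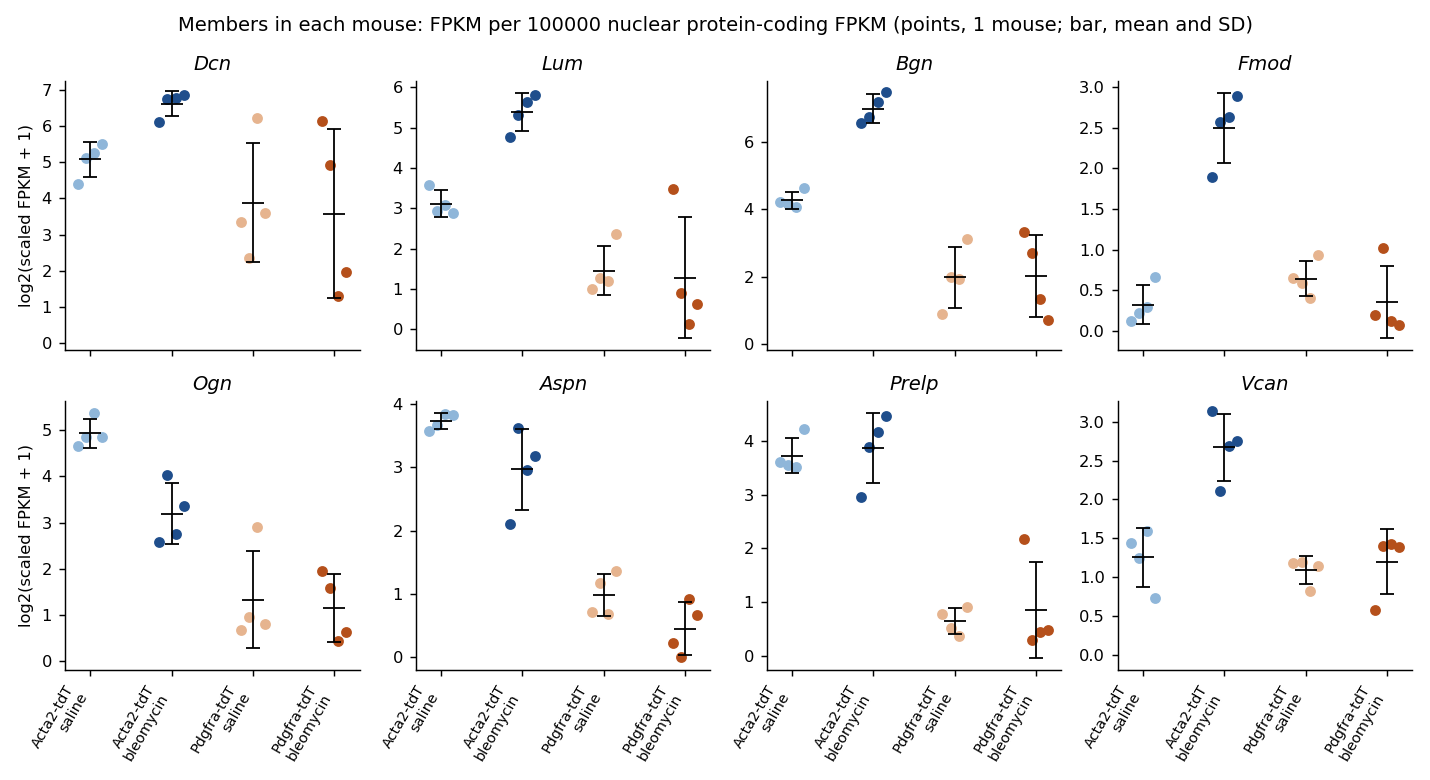
Level of each gene in each mouse as log2(scaled FPKM + 1), the scaled FPKM being per 100000 nuclear protein-coding FPKM, with points for single mice and bars for the mean and SD of 4 mice. In Acta2-tdT mice Bgn, Lum, Fmod, Dcn and Vcan lie higher with bleomycin, Ogn lies lower, and Prelp overlaps.

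**Figure D3:**
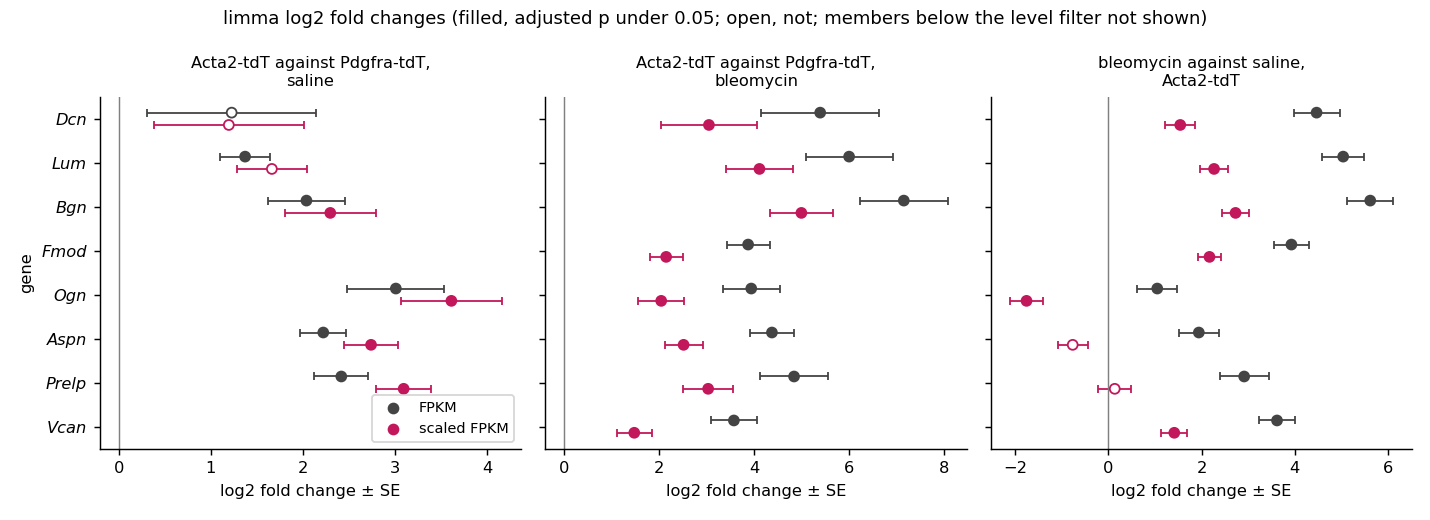
limma log2 fold changes with SE (x axis) of each gene tested in 3 comparisons, in FPKM and scaled FPKM, filled where the adjusted p was under 0.05. In Acta2-tdT cells the scaled fold changes of bleomycin against saline run from 2.73 for Bgn to -1.75 for Ogn.

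Other cell markers moved with bleomycin in the same libraries. The 9 macrophage markers summed to between 73.3 and 447 FPKM in Acta2-tdT saline mice and between 2458 and 10950 FPKM in Acta2-tdT bleomycin mice, the 5 neutrophil markers to between 740.5 and 1472 FPKM and between 1141 and 5699 FPKM, and no macrophage or neutrophil marker was at 0 throughout either group. Scaled, the neutrophil sum went the other way, from 2067 to 3033 with saline against 261.8 to 1791 with bleomycin, and the macrophage sum was 206 to 773.1 against 772.5 to 2513. The scaled sum of the 10 fibroblast markers, which include Col1a1, Col1a2 and Col3a1, lay between 51.6 and 97.6 in saline mice and between 376.9 and 586.3 in bleomycin mice. That of the 6 pericyte markers went down, from between 43.2 and 63.5 to between 14.4 and 22.1. The scaled sums of the 6 endothelial markers (12.03 to 20.7 against 5.36 to 8.17) and the 6 lymphocyte markers (8.30 to 14.3 against 1.26 to 3.90) were also lower in every bleomycin mouse. The fibroblast, pericyte, neutrophil, endothelial and lymphocyte sums thus did not overlap on this scale, whereas the smooth muscle (488.8 to 717 against 662.5 to 1014), epithelial (124.3 to 1616 against 67.1 to 481.3) and mesothelial sums did. The 5 mesothelial markers summed to at most 1.26 FPKM with saline and to between 2.32 and 28.3 FPKM with bleomycin. The part of these cells in the members' change was not tested.

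The share of each gene in the summed FPKM of the 8 does not depend on the scaling. In Acta2-tdT cells, Bgn went from 15.9% ± 2.61 (SD, n = 4) with saline to 41.6% ± 4.15 with bleomycin, and Lum from 6.98% ± 2.97 to 13.3% ± 0.936. Ogn went from 25.8% ± 4.65 to 2.88% ± 1.55, Aspn from 10.5% ± 0.595 to 2.32% ± 0.973, and Prelp from 10.7% ± 2.14 to 4.51% ± 0.942. For these 5 genes no bleomycin mouse overlapped a saline mouse. The Dcn share overlapped between the groups, 28.6% ± 5.42 with saline and 31.9% ± 2.65 with bleomycin, and Fmod and Vcan were each under 4% of the sum in every Acta2-tdT mouse. Within a mouse, Bgn was below Dcn in all 4 saline mice (median ratio 0.512) and above it in all 4 bleomycin mice (median ratio 1.36). The median ratio of Ogn to Dcn was 0.954 in saline mice and 0.0765 in bleomycin mice.

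**Figure D4:**
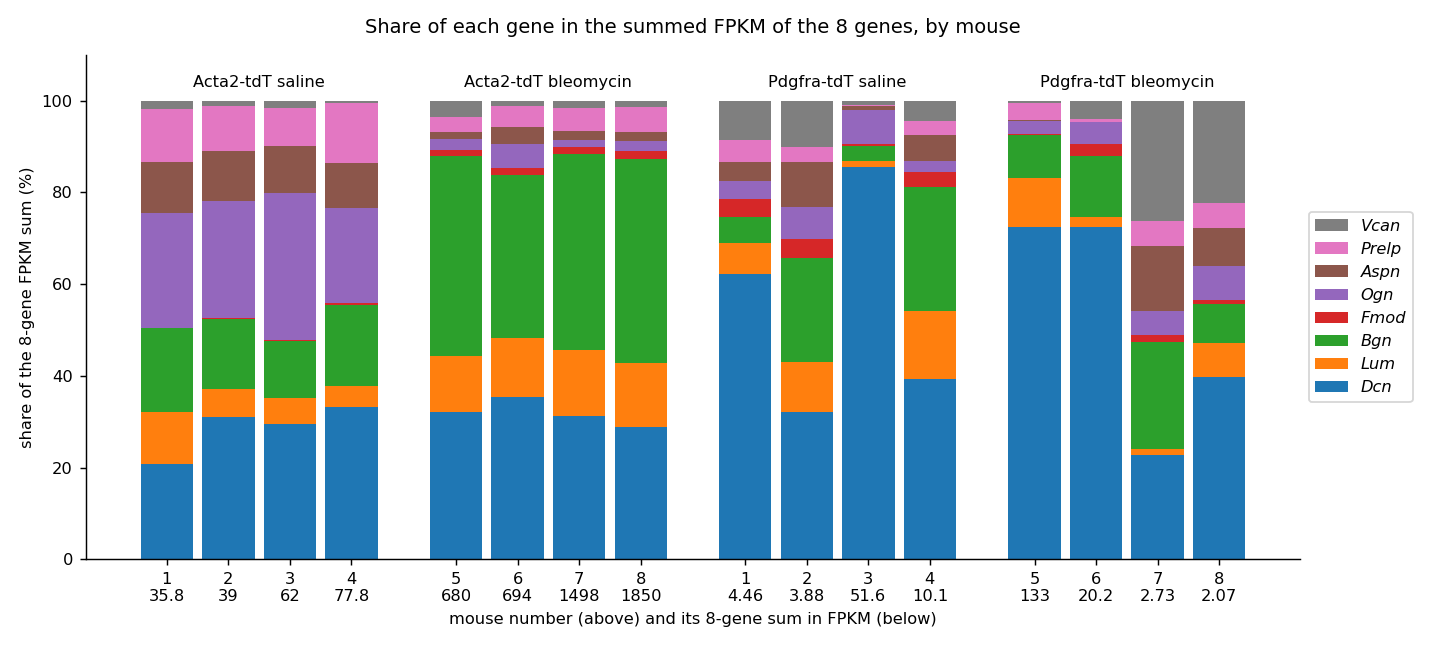
Share of each gene in the summed FPKM of the 8 genes (y axis, percent) in each of the 16 mice, with the sum in FPKM under each bar. In Acta2-tdT mice the Bgn share is 41.6% with bleomycin against 15.9% with saline and the Ogn share 2.88% against 25.8%, while Pdgfra-tdT bars with sums under 11 FPKM hold no gene above the receptor genes' 95th percentile.

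SLRPs coat fibrillar collagen, and in Acta2-tdT cells Col1a1, Col1a2 and Col3a1 had larger log2 fold changes with bleomycin than any member, in FPKM and scaled. Col1a1, the main chain of type I collagen, was 1.76 to 2.44 FPKM in Acta2-tdT saline mice and 274.7 to 1002 FPKM in Acta2-tdT bleomycin mice. Dcn exceeded Col1a1 by 3.63 to 10.6 times in the 4 saline mice, and was 0.439 to 0.892 times Col1a1 in the 4 bleomycin mice. This ratio was looked at after the values were seen.

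In Pdgfra-tdT cells neither of the 2 members that reached the filter, Dcn and Bgn, was called between bleomycin and saline. In this comparison limma called 0.0275% of 7275 genes higher and 0.0962% lower in FPKM, 0.0275% and 0.124% scaled, and 312 genes had an unadjusted p under 0.05, so few genes of any kind were called. The sum of the 9 macrophage markers nevertheless moved without overlap, between 40.1 and 92.7 FPKM with saline and between 389.8 and 3343 FPKM with bleomycin (scaled, 72.5 to 274.4 against 1367 to 4106). Single markers of the list overlapped in FPKM, among them C1qa (1.294 to 5.925 against 2.687 to 64.64), C1qc, Adgre1 and Mrc1. The part of macrophages in the members' values was not tested. Dcn was 96.2, 14.6, 0.622 and 0.820 FPKM in bleomycin mice 5 to 8, a spread that contains the saline values of 1.25 to 44.1. Its log2 fold change was 0.31 (adjusted p = 0.941) in FPKM and -0.30 scaled (adjusted p = 0.916). Bgn was 12.6, 2.71, 0.635 and 0.177 FPKM with bleomycin, with a log2 fold change of 0.51 in FPKM and 0.037 scaled. Without saline mouse 3 and bleomycin mouse 5, a choice made after seeing the data, neither gene was called, and Bgn turned to -0.10 in FPKM. Vcan, under the filter, did not overlap in FPKM, at 0.383 to 0.460 with saline and 0.463 to 0.813 with bleomycin (exact permutation p = 0.0286), as in this direction for 1.43% of the genes tested. All 8 values were below the receptor genes' 95th percentile, and scaled Vcan overlapped (exact permutation p = 0.686).

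Of the other members in Pdgfra-tdT cells, Lum, Ogn and Prelp stood out in bleomycin mouse 5 alone or with saline mouse 3. In bleomycin mouse 5, Lum was 14.1 FPKM, Prelp 4.86 FPKM and Ogn 3.99 FPKM, and 5 members lay above the 95th percentile of the receptor genes. In saline mouse 3, Dcn and Ogn did so, and in bleomycin mouse 6 Dcn and Bgn. In the other 5 Pdgfra-tdT mice no member did. Dcn was thus the member most often above background in this line, in 3 of 8 mice, and in those mice Cldn5, a tight-junction gene of endothelium, was 246, 741 and 77.7 FPKM against 2.43 to 19.5 FPKM in the rest. The fibroblast markers, too, were highest in saline mouse 3 and bleomycin mouse 5, at the sums given above. The part of endothelial cells and of fibroblasts in these values was not tested.

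**Figure D5:**
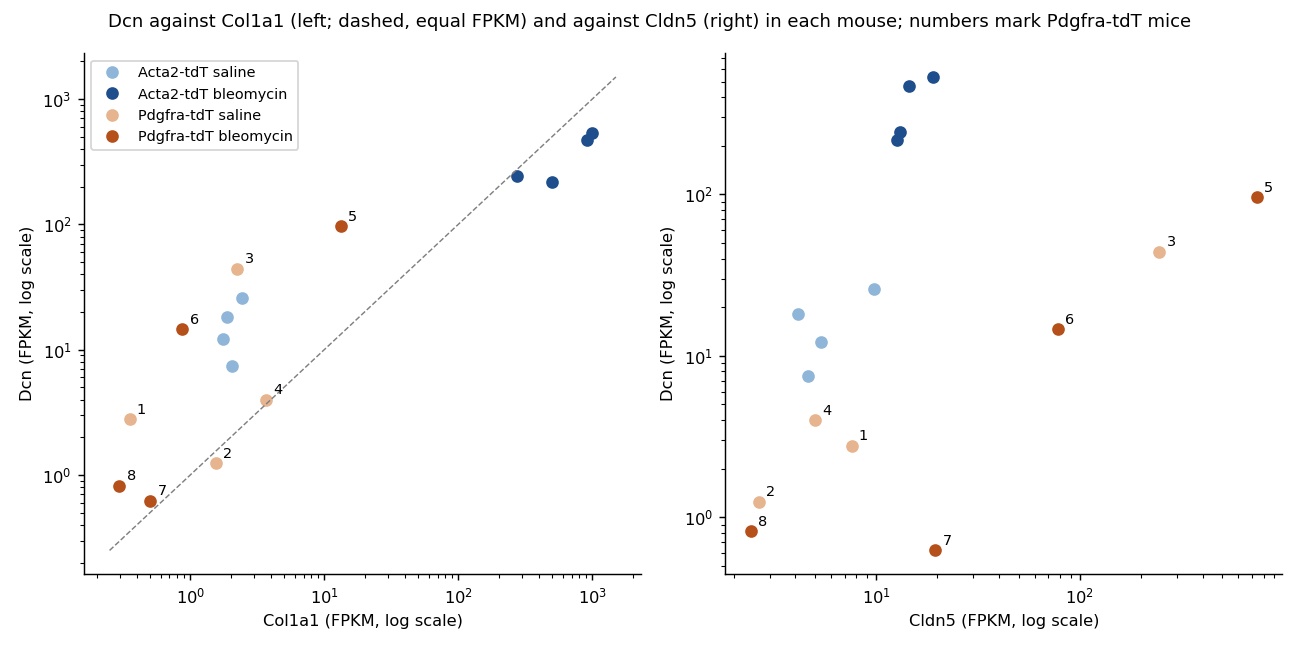
Dcn (FPKM, log axis) against Col1a1 (left) and Cldn5 (right, FPKM, log axes) in each mouse, coloured by group, with the numbers of the Pdgfra-tdT mice and a dashed line at equal FPKM. In the left panel the Acta2-tdT bleomycin mice lie below the line and the Acta2-tdT saline mice above it, and Pdgfra-tdT mice 3, 5 and 6 combine high Dcn with high Cldn5.

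Between the lines under bleomycin, all 8 members were called higher in Acta2-tdT cells on both scales. The background was 71.0% of 11995 genes called higher in FPKM and 15.3% scaled, and all 8 members passed the filter through the Acta2-tdT mice. These fold changes in FPKM ran from 3.57 for Vcan to 7.15 for Bgn (log2), with a median of 4.6 against 1.81 for all genes. After scaling they ran from 1.47 for Vcan (SE 0.37, adjusted p = 0.0133) to 4.99 for Bgn (SE 0.66, adjusted p = 0.000979), with a median of 2.77 against 0.23. The scaled groups did not overlap for 7 members, where 18.9% of genes did so in this direction. Dcn was the exception, at 68.8 to 115 scaled FPKM in Acta2-tdT mice and up to 69.7 in Pdgfra-tdT bleomycin mouse 5 (adjusted p = 0.0399).

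That scaled Dcn value is the least secure of the 8: leaving out Pdgfra-tdT bleomycin mouse 7 or 8 or any Acta2-tdT bleomycin mouse took its adjusted p to between 0.0691 and 0.105. Both bleomycin groups carried macrophage markers, with scaled sums of 772.5 to 2513 in Acta2-tdT and 1367 to 4106 in Pdgfra-tdT mice. Other lists were higher in every Acta2-tdT bleomycin mouse, with scaled sums of 662.5 to 1014 against 4.86 to 23.2 for smooth muscle, 376.9 to 586.3 against 7.62 to 76.1 for fibroblast, 14.4 to 22.1 against 1.496 to 7.74 for pericyte and 261.8 to 1791 against 28.1 to 106.4 for neutrophil markers. The endothelial sum was lower in every Acta2-tdT bleomycin mouse, 5.36 to 8.17 against 13.4 to 634.6. The part of these cells in the difference was not tested. The 4 comparisons share groups of mice, so their values are given side by side only.

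The test of whether the bleomycin effect differed between the lines called 6 members in FPKM, where 36.6% of 16605 genes were called higher in the Acta2-tdT line. Bgn had the largest difference of log2 effects at 5.11 (adjusted p = 0.00146), followed by Lum at 4.62, Fmod at 3.97, Vcan at 3.39, Prelp at 2.42 and Aspn at 2.15. Dcn at 4.16 (adjusted p = 0.0584) and Ogn at 0.93 (adjusted p = 0.361) were not called. Fmod and Vcan passed the filter only through the Acta2-tdT bleomycin mice, the group where they are high. With quantile normalization Aspn and Prelp were not called, which left 4. The Prelp call (adjusted p = 0.0288) was also lost with a pseudocount of 0.1 (adjusted p = 0.149), without a filter (adjusted p = 0.0663), and when Acta2-tdT saline mouse 1 or 2, Acta2-tdT bleomycin mouse 7 or 8, or Pdgfra-tdT bleomycin mouse 6, 7 or 8 was left out (adjusted p between 0.0552 and 0.062). After scaling, where 1.19% of genes were called higher, Fmod alone was called, at 2.46 (SE 0.37, adjusted p = 0.00248). Without both Pdgfra-tdT mice that stood apart, a choice made after seeing the data, 48.3% of genes were called higher in FPKM, and 3.65% higher and 15.1% lower scaled. Dcn was then called too in FPKM, at 4.43 (adjusted p = 0.0036), and 5 members were called after scaling, with Fmod, Lum, Bgn and Vcan higher and Ogn lower at -1.83 (adjusted p = 0.0339).

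Genes whose scaled pattern over the 16 mice was most like that of each member were found by Pearson's r of log2(scaled FPKM + 1) among 10356 other genes. These points fall into 4 groups and share the library scaling, so r describes the group pattern and carries no test. Bgn was most like the elastin gene Eln (r = 0.984), Fstl1 and Col6a1, and Lum was most like Col6a2 (r = 0.977), Pcolce and Eln, which are matrix genes apart from the secreted Fstl1. Aspn was most like Pdlim3 (r = 0.979), Nexn and Lmcd1, Prelp like Speg (r = 0.972), Hspb6 and Cnn1, and Ogn like Mustn1 (r = 0.970), Fxyd1 and Filip1l, of which Pdlim3, Nexn, Speg, Hspb6 and Cnn1 are genes of muscle cells. Dcn was most like Cnn3 (r = 0.967), Serping1 and Eif3d. Fmod was most like Cldn4 (r = 0.956), Ccnf and Tmem214, and Vcan like Loxl3 (r = 0.951), Tvp23a and Wbscr16. Among the members, Bgn and Lum were the most alike (r = 0.964), then Prelp and Aspn (r = 0.896), while Ogn had r = 0.127 with Fmod and r = 0.124 with Vcan.

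Of the 12 other SLRP genes, 3 passed the filter in Acta2-tdT cells with bleomycin. Podn rose with a log2 fold change of 2.51 in FPKM (adjusted p = 0.000217) and was not called scaled (0.34), and Tsku rose by 2.35 in FPKM and 0.72 scaled (adjusted p = 0.0272). Tsku was at most 0.378 FPKM with saline and passed the filter only through the bleomycin mice. Ecm2, the neighbour of Aspn, was 1.81 to 5.20 FPKM in all 16 mice and was not called in FPKM in any comparison. Scaled Ecm2 was 6.22 to 8.21 in Acta2-tdT saline mice and 0.392 to 1.33 in Acta2-tdT bleomycin mice, a log2 fold change of -2.32 (adjusted p = 2.56e-05), and under bleomycin it was lower than in Pdgfra-tdT mice (-1.97, adjusted p = 0.00362). Ecm2 lay near background, at 2.80 to 3.60 FPKM in Acta2-tdT saline mice, where the receptor genes' 95th percentile was 2.56 to 2.90 FPKM. The part of background in its scaled differences was not tested. The other neighbours stayed low in all mice, with Omd at most 2.08 FPKM, Kera at most 0.707 FPKM, Epyc at most 0.400 FPKM and Optc at most 0.438 FPKM.

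The counts of related genes in Acta2-tdT cells stand against the 70.4% of all genes called higher in FPKM with bleomycin, and the 23.8% called higher and 32.3% called lower scaled. They hold genes that passed the filter only through the bleomycin mice, having been under 1 FPKM in every saline mouse, as were 27.2% of all genes tested. Such genes were 11 of the 17 tested for chondroitin and dermatan sulfate synthesis, 8 of 11 other core protein genes, 4 of 7 fibrillar collagens, 2 of 8 receptor and ligand genes, 1 of 2 keratan sulfate genes (B3gnt2) and 1 of 4 protease genes (Adamts4). These counts are the fewest. Genes such as Ugdh (median 0.837 FPKM) and Chpf2 (median 0.568 FPKM) reached 1 FPKM in some saline mice, and they too would not have passed without the bleomycin mice. Of 23 genes of chondroitin and dermatan sulfate synthesis, 17 passed the filter in Acta2-tdT cells, all 17 rose in FPKM with bleomycin (median log2 fold change 2.17 against 1.76 for all genes) and 8 rose after scaling, with none lower. Chpf, a chondroitin polymerizing factor, was 1.32 ± 0.209 FPKM with saline and 80.7 ± 41.9 FPKM with bleomycin (mean ± SD, n = 4), with log2 fold changes of 4.95 in FPKM and 2.40 scaled. Ugdh, which makes the UDP-glucuronate the chains are built from, had 4.2 and 1.9, Chpf2 had 4.09 and 1.90, and the sulfotransferase gene Chst12 had 3.77 and 1.16. Of the 6 keratan sulfate genes, B4galt1 rose by 3.18 in FPKM and 0.84 scaled, and B3gnt2 rose by 1.95 in FPKM and was not called scaled.

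Of 20 other proteoglycan core protein genes, 11 were tested and all 11 rose in FPKM, 8 of them after scaling with 1 lower, against 70.4% of all genes higher in FPKM and 23.8% higher scaled. Gpc1, Sdc1 and Sdc4, which code for cell-surface heparan sulfate proteoglycans, had scaled log2 fold changes of 1.94, 1.74 and 1.54, and Hspg2, the basement membrane proteoglycan perlecan, had 1.28. Of 13 hyaluronan-binding and partner genes, 2 were tested. The hyaluronan receptor Cd44 rose by 3.46 in FPKM and 0.99 scaled, whereas Lyve1 rose by 1.74 in FPKM and was lower scaled (-0.86, adjusted p = 0.0383).

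Of 7 proteoglycan-cleaving protease genes, 4 were tested and 3 rose in FPKM, a share near the 70.4% of all genes. Adamts4 and Adamts8 rose by 2.80 and 2.60 in FPKM and by 0.74 and 0.59 scaled, Adamts1 rose by 2.70 in FPKM and was not called scaled, and Adamts15 was not called in FPKM and was lower scaled (-0.80, adjusted p = 0.0165). All 7 fibrillar collagen genes tested, of 11, rose in FPKM and 6 after scaling, led by Col1a1 (7.62 in FPKM, 4.93 scaled), Col1a2 (7.06, 4.28), Col3a1 (6.29, 3.61) and Col5a2 (5.76, 3.43). Of 10 TGF-β and innate receptor genes of proteins that SLRPs bind, 8 were tested, 7 rose in FPKM, and 5 were higher and 2 lower scaled, where 23.8% of all genes were higher and 32.3% lower. Tgfb2 rose by 3.98 in FPKM and 1.56 scaled, Tgfbr2 by 3.59 and 1.20, Tgfb3 by 3.46 and 1.10, and Tlr2, a receptor that biglycan can engage, by 3.39 and 1.26.

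Between the lines, few of these genes could be tested with saline, at most 3 in a list, and none of the 8 lists had a gene called in FPKM and 2 had 1 gene each (Sdc2 and Chst12) called higher in Acta2-tdT cells after scaling, where 2.72% of all genes were called higher in FPKM and 3.04% scaled. Under bleomycin all 17 tested chondroitin and dermatan sulfate genes were higher in Acta2-tdT cells in FPKM and 5 after scaling, and all 7 fibrillar collagens were higher on both scales, where 71.0% of all genes were higher in FPKM and 15.3% scaled. Of these, 5 of the 17 and 3 of the 7 were under 1 FPKM in every Pdgfra-tdT bleomycin mouse, as were 16.5% of all genes tested, and passed the filter only through the Acta2-tdT mice. These counts are the fewest. Genes such as Col1a1 (median 0.689 FPKM) and Chpf (median 0.384 FPKM) reached 1 FPKM in some Pdgfra-tdT bleomycin mice. They too would not have passed without the Acta2-tdT mice. In Pdgfra-tdT cells no gene of the 8 lists was called between bleomycin and saline, with at most 3 tested in a list.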

How the data were processed

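The authors sorted tdTomato-positive cells, made SmartSeq2 libraries and sequenced them on an Illumina HiSeq. Per the labels they used TopHat2 2.1.1, Bowtie2 and Cufflinks 2.1.1 on mm10 (GRCm38), and deposited 1 FPKM value with Cufflinks bounds per gene and mouse. FPKM are not counts, so depth is unknown and no counting interval is given. FPKM were summed per Ensembl gene, and 15 genes whose status was not OK in a mouse were left out. No 2 libraries were identical.

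Log2(FPKM + 1) was tested with limma 3.58.1 (lmFit, eBayes with trend, Benjamini-Hochberg over all genes, threshold 0.05) on genes of at least 1 FPKM in 4 of 8 mice (4 of 16 for the interaction). The pseudocount of 1 understates fold changes of low genes. The same fit was run on FPKM divided by the sum over 21950 nuclear protein-coding genes. Exact permutation tests were two-sided. All members and up to 4 called genes per list and comparison are named, those with the largest FPKM fold change. The members and lists were chosen with earlier results of these data known. The labels give no batch. Alternatives were another pseudocount, 2 other filters, quantile normalization, eBayes without trend, quality weights, 1 fit of all mice, the largest row per gene, a replicate block and each mouse left out with the gene filter kept. The limma step was tested on simulated data. Promoters are from RefSeq, and 6 of 8 members matched.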

Additional observations from a re-analysis of the deposited data

Results flagged for a closer look

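In 4 of 32 groups of 4 mice, 1 mouse lay far from the other 3 (Dixon's test on log2(FPKM + 1)), where chance gives about 1 in 20. Lum at 14.1 FPKM and Prelp at 4.86 FPKM were far above the rest in Pdgfra-tdT bleomycin mouse 5. Ogn at 3.88 FPKM was far above the rest in Pdgfra-tdT saline mouse 3. Vcan at 7.62 FPKM was far below the rest in Acta2-tdT bleomycin mouse 6. Endothelial and fibroblast markers were high in both Pdgfra-tdT mice, and their part in these values was not tested.

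The bleomycin effect differed between the lines by limma's interaction term in FPKM for 6 members, higher in Acta2-tdT cells by 4.62 for Lum, 5.11 for Bgn, 3.97 for Fmod, 2.15 for Aspn, 2.42 for Prelp and 3.39 for Vcan on the log2 scale, where 36.6% of all genes were called higher. Fmod and Vcan passed the filter only through the Acta2-tdT bleomycin mice. The Prelp call was lost under several settings (adjusted p between 0.0552 and 0.609). In scaled FPKM it differed for Fmod, by 2.46, where 1.19% of all genes were called higher.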

How the results depend on the processing

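Of the members called between the lines with saline, 5 in FPKM became 3 with a pseudocount of 0.1, with quantile normalization and with all 16 mice in 1 fit, 2 without a filter and 0 with a mean FPKM of at least 5, which left 2 members to test; leaving out 1 mouse gave 2 to 6. The replicate block gave 1 call there. Quality weights added a limma call of Dcn in FPKM (adjusted p = 0.0154), and of Dcn (adjusted p = 0.0109) and Lum (adjusted p = 0.0119) scaled. Same-numbered mice of the 2 lines did not deviate together (r between -0.307 and 0.157), so they share only a number. Scaled, the 4 calls became 0 with a mean FPKM of at least 5 (3 to 6 with 1 mouse left out), and the 8 calls between the lines under bleomycin became 5 without a filter (7 to 8). In Acta2-tdT cells, bleomycin against saline gave 7 to 8 calls in FPKM and 6 to 7 scaled with 1 mouse left out, scaled Dcn lost its call with all 16 mice in 1 fit, and in Pdgfra-tdT cells 0 throughout. The interaction gave 5 to 7 calls in FPKM with 1 mouse left out and 4 with quantile normalization. Scaled, it gave 0 with a mean FPKM of at least 5, a filter that Fmod did not pass, so that Fmod was not tested there. The scaled interaction gave 4 with quantile normalization, 5 with quality weights, 3 without Pdgfra-tdT bleomycin mouse 5, 1 to 3 over all mice left out in turn, and 5 without both Pdgfra-tdT mice that stood apart.

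Under quantile normalization the FPKM log2 fold changes of bleomycin against saline in Acta2-tdT cells turned to -1.32 for Ogn (adjusted p = 0.00689) and -0.43 for Aspn, Prelp lost its call, and the Ogn interaction to -0.98. Scaled Prelp there turned to -0.058 without bleomycin mouse 8 (up to 0.45 with another left out). In Pdgfra-tdT cells, Dcn in FPKM turned to -0.15 with quantile normalization and ranged from -0.88 to 1.23 with 1 mouse left out, and scaled Dcn turned to 0.13 with quality weights and ranged from -1.16 to 0.48. Bgn in FPKM turned to -0.10 without both mice that stood apart and ranged from -0.20 to 0.98, and scaled Bgn turned to -0.034 with a pseudocount of 0.1, -0.13 with quality weights and -0.42 without both mice, ranging from -0.41 to 0.47. The scaled interaction of Aspn turned to 0.65 with a pseudocount of 0.1 and 0.24 with quantile normalization, and ranged from -0.45 to 0.057. That of Prelp turned to 0.57 with quantile normalization, 0.53 with quality weights and 0.47 without both mice, and ranged from -0.26 to 0.38. The cause was not tested. None of these reversed values was called before or after except Ogn and Aspn in Acta2-tdT cells. Over all members and settings, 1026 values kept direction and side of the threshold, 75 lost the call, 25 gained it and 30 turned.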
